A study of Homo sapiens with 9 samples.

Results

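SOX2, MYC and related stemness factors are 8 genes that are widely used as markers or drivers of a stem-like state in tumour cells: the transcription factor genes SOX2, SOX4, SOX9, KLF4 and MYC, the chromatin regulator gene BMI1, the surface receptor gene CD44 and the enzyme gene ALDH1A1. They were chosen by name, and the Ensembl identifier of each was found once among the 62257 gene rows of the deposited tables. All 8 passed the filter on low counts that left 16947 rows to test. RNA was sequenced from A549, an established line from a human lung adenocarcinoma, in 3 groups of 3 libraries after 96 h of treatment. The control group received phosphate-buffered saline. The ddp group received apoptotic extracellular vesicles (apoEVs), membrane particles shed by dying cells, from apoptosis induced by the DNA-crosslinking drug cisplatin. The sts group received apoEVs from apoptosis induced by the kinase inhibitor staurosporine. The labels name neither the cells that shed the vesicles nor the vesicle dose, and 1 cell line was used. No group was given the drugs without vesicles. Whether replicates are separate cultures is not stated, and p-values therefore reflect the spread among these libraries, possibly a technical one.

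SOX2, KLF4 and MYC belong to the set of factors that, with POU5F1, can reprogram a differentiated cell to pluripotency, and SOX2 is also a lineage factor of the airway and of squamous lung tumours. MYC works as a partner of MAX at promoters, where it raises ribosome production and growth, and is opposed by the MXD proteins, which compete for MAX. BMI1 is a subunit of Polycomb repressive complex 1, which silences genes such as the cell-cycle inhibitor locus CDKN2A. CD44 binds hyaluronan, a matrix sugar polymer, and ALDH1A1 oxidises retinaldehyde to retinoic acid. High CD44 or high aldehyde dehydrogenase activity is often used to sort tumour-initiating cells, although cell lines differ widely in both.

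Libraries held between 13799950 and 16526399 gene counts. The mitochondrial share was 11.4% to 12.5% for control libraries, 12.1% to 13.1% for ddp libraries and 12.7% to 13.1% for sts libraries. Of 8 epithelial and A549 markers all were detected, and their summed level was 19414 to 20429 CPM (counts per 1000000) in control, 12644 to 12950 CPM in ddp and 15156 to 16220 CPM in sts. These markers did not move as a group. Mean counts, not scaled to depth, were lower in both treated groups for KRT8, KRT18, AKR1B10, CDH1 and EPCAM. KRT7 was at 17150 counts in control, 20681 in ddp and 10299 in sts. KRT19 was at 1686, 1520 and 2105 counts and AKR1C1 at 27568, 19939 and 33275. Alveolar type II markers were near 0 in every group, with SFTPA1 at 0 counts throughout, and the lung lineage factor gene NKX2-1 reached at most 3 counts. Of 8 leukocyte markers 6 stayed under 10 counts in every library, and the list summed to 11.1 to 17.1 CPM in control, 14.1 to 15.6 CPM in ddp and 20.5 to 25.8 CPM in sts, mostly CD14. Of 8 fibroblast markers 5 stayed under 10 counts, with FAP at 0, and the list summed to between 2.06 and 3.99 CPM in all groups. Of 6 endothelial markers 4 stayed under 10 counts. The list summed to 1.39 to 1.87 CPM in control, 1.38 to 1.48 CPM in ddp and 2.83 to 4.72 CPM in sts. PECAM1 made up 65.0% of the sts sum, with mean counts of 2.33 in control, 7.0 in ddp and 36.3 in sts. CDH5, the other marker above that limit, did not rise, with mean counts of 19.0, 11.7 and 13.3. The higher sum in sts was therefore mostly PECAM1 and not a shift of the whole list. The part of these shifts in the results below was not tested. In bulk RNA, fewer cells of a kind and less RNA per cell cannot be told apart.

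Per gene length, the 8 genes ranged from a rare to a very abundant transcript. In control, ALDH1A1 had the highest level, 2806 ± 29.5 FPKM (fragments per kilobase of gene, scaled to library depth; SD, n = 3), and ranked 13 of the 16947 rows tested. CD44 followed at 34.0 ± 0.108 FPKM, MYC at 13.0 ± 0.961, BMI1 at 9.80 ± 0.441, SOX9 at 6.64 ± 0.244, SOX4 at 5.08 ± 0.666, KLF4 at 3.37 ± 0.530 and SOX2 at 0.588 ± 0.336 FPKM. SOX2, the lowest of the 8, ranked 13555. No neighbours in that order overlapped between their control libraries.

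The order of levels differed between the groups. In ddp, SOX9 (3.28 ± 0.728 FPKM) fell behind SOX4 (4.90 ± 0.240) and KLF4 (3.89 ± 0.514), and its libraries overlapped those of KLF4. In sts, SOX4 (10.6 ± 1.01 FPKM) stood level with MYC (10.5 ± 0.344), and SOX9 (8.29 ± 0.410) with BMI1 (7.77 ± 0.627), each pair with overlapping libraries. ALDH1A1, CD44 and SOX2 kept the first, second and last places in all 3 groups.

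**Figure D1:**
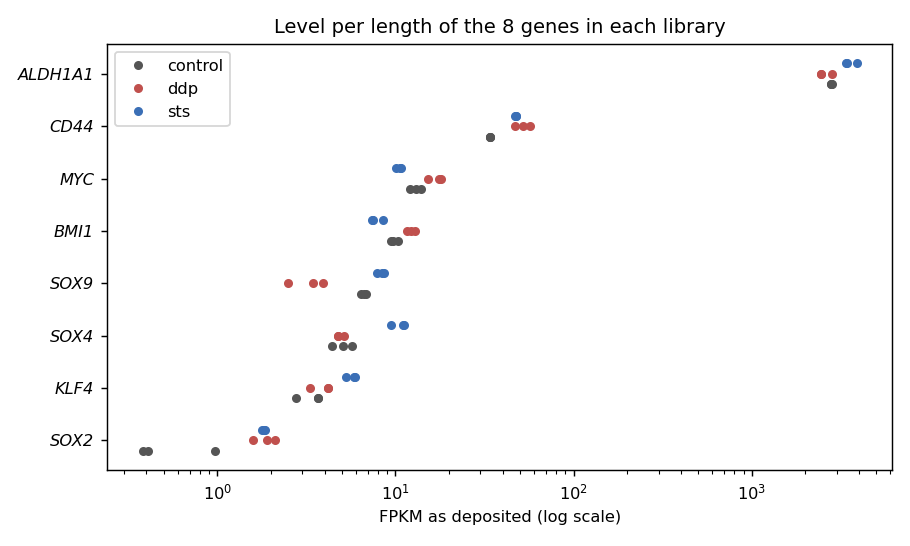
Deposited FPKM (horizontal axis, log scale) of the 8 genes in each library, with 1 point per library and colours for the control, ddp and sts groups. ALDH1A1 lies far to the right of the others, and SOX9 is left of its control points in ddp while SOX4 is right of them in sts.

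SOX2 rose with both kinds of vesicle from a very low base. It stood at 2.47, 1.03 and 0.972 CPM in the control libraries, at 4.001, 5.30 and 4.83 CPM in ddp and at 4.77, 4.59 and 4.65 CPM in sts. Neither treated group overlapped control, and the 2 treated groups overlapped each other. The rise was 3.13-fold with ddp (log2 fold change 1.65, SE 0.294, adjusted p = 1.03e-04) and 3.10-fold with sts (1.63, SE 0.296, adjusted p = 4.80e-05). Between the vesicle types the log2 difference was −0.01 with a 95% confidence interval from −0.55 to 0.53 (adjusted p = 0.972). Its sign turned with upper-quartile scaling and when ddp replicate 2 or ddp replicate 3 was left out. These levels rest on few reads, 14 to 38 in control and 64 to 87 in the treated libraries, and control replicate 1 held the 38. Without that library the log2 fold changes were 2.23 with ddp and 2.20 with sts. SOX2 (ENSG00000181449) lies on chromosome 3 at 181711925 to 181714436, plus strand, inside the span of the non-coding gene SOX2-OT on the same strand, which had 0 to 4 counts per library.

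SOX4, a factor that is often raised in carcinomas and in developing epithelium, rose with sts. Its CPM values were 21.7, 24.9 and 28.4 in control, 25.3, 23.2 and 23.3 in ddp, and 55.9, 46.7 and 54.7 in sts. The sts libraries lay above all 6 others, while control and ddp overlapped. The rise with sts was 2.10-fold (log2 fold change 1.07, SE 0.102, adjusted p = 4.85e-10), and the difference between the vesicle types was 2.19-fold (1.13, SE 0.102, adjusted p = 1.02e-10). With ddp the log2 fold change was −0.06 (95% confidence interval −0.28 to 0.16, adjusted p = 0.776), and it was 0.04 without control replicate 3. SOX4 (ENSG00000124766) is on chromosome 6 at 21593751 to 21598619, plus strand.

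SOX9, a factor of the distal lung bud and of cartilage, fell with ddp and was called higher with sts. It was at 26.5, 25.2 and 27.3 CPM in control, at 9.82, 15.4 and 13.7 CPM in ddp and at 33.9, 34.7 and 31.3 CPM in sts. The 3 groups did not overlap, with ddp the lowest and sts the highest. The fall with ddp was 2.03-fold (log2 fold change −1.02, SE 0.124, adjusted p = 1.80e-07), and sts stood 2.56-fold above ddp (1.36, SE 0.123, adjusted p = 1.02e-10). Against control the rise with sts was 1.26-fold (0.34, SE 0.116, adjusted p = 0.0247). That call was lost with DESeq2 (adjusted p = 0.0719), with limma on log2(FPKM + 1) (0.0833) and without any of control replicates 1 (0.0704), 2 (0.107) and 3 (0.0507) or sts replicates 1 (0.0886) and 2 (0.0820). SOX9 (ENSG00000125398) is on chromosome 17 at 72121020 to 72126416, plus strand, and lies within SOX9-AS1 on the other strand, which had 3 to 12 counts per library.

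KLF4, a zinc finger factor that restrains proliferation in many epithelia, rose with sts. Its CPM values were 13.7, 13.5 and 10.3 in control, 15.4, 15.4 and 12.1 in ddp, and 22.3, 19.8 and 21.7 in sts. The sts libraries were again above all 6 others, and control and ddp overlapped. The rise was 1.70-fold against control (log2 fold change 0.77, SE 0.133, adjusted p = 2.57e-05) and 1.49-fold against ddp (0.57, SE 0.131, adjusted p = 6.74e-04). With ddp the log2 fold change was 0.20 (95% confidence interval −0.08 to 0.47, adjusted p = 0.373). KLF4 (ENSG00000136826) lies on chromosome 9 at 107484852 to 107490482, minus strand, and overlaps no other row of the tables.

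MYC and BMI1 each rose with ddp and fell with sts. MYC was at 64.6, 55.5 and 60.5 CPM in control, at 83.0, 80.4 and 70.1 CPM in ddp and at 47.3, 50.2 and 49.3 CPM in sts. The 3 groups did not overlap, with ddp the highest and sts the lowest. MYC rose 1.29-fold with ddp (log2 fold change 0.37, SE 0.0842, adjusted p = 0.00192) and fell 1.23-fold with sts (−0.30, SE 0.0862, adjusted p = 0.00710). The sts libraries were 1.59-fold below ddp (−0.67, SE 0.0853, adjusted p = 1.13e-07). MYC (ENSG00000136997) is on chromosome 8 at 127735434 to 127742951, plus strand, and overlaps CASC11 on the other strand, which had 1 to 4 counts.

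BMI1 followed the same order of groups. It was at 43.0, 41.6 and 45.9 CPM in control, at 57.0, 51.5 and 54.3 CPM in ddp and at 33.5, 33.1 and 37.9 CPM in sts, again without overlap. The rise with ddp was 1.25-fold (log2 fold change 0.32, SE 0.0864, adjusted p = 0.00907) and the fall with sts was 1.25-fold (−0.32, SE 0.0889, adjusted p = 0.00517). The sts group stood 1.56-fold below ddp (−0.64, SE 0.0878, adjusted p = 4.16e-07). The rise with ddp lost its call without control replicate 2 (adjusted p = 0.0524) and without ddp replicate 1 (0.0615), with log2 fold changes of 0.29 and 0.28. BMI1 (ENSG00000168283) lies on chromosome 10 at 22321099 to 22331484, plus strand. It overlaps the read-through gene COMMD3-BMI1 on the same strand, which is listed at 0 counts in all 9 libraries, so how reads common to both were counted is uncertain.

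The promoters of BMI1 and KLF4 are shown because both hold the letters CACGTG, the E-box that MYC binds together with MAX. Each line gives the bases upstream of the RefSeq start (GRCh38.p14), 5′ to 3′ on the gene's strand, with the E-box in capitals. The BMI1 stretch is chr10:22320849-22321098, plus strand, and the KLF4 stretch is chr9:107489770-107490019, minus strand. RefSeq gives BMI1 a second start, 857 bases downstream, whose stretch (chr10:22321706-22321955) did not hold these letters. The RefSeq start of KLF4 lies 713 bases inside the gene bounds of the deposited tables.
BMI1: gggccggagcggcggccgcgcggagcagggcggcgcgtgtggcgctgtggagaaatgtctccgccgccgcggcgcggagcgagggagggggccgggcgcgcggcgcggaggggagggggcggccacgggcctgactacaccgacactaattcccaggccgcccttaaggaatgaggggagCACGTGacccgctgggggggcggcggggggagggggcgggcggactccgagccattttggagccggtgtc
KLF4: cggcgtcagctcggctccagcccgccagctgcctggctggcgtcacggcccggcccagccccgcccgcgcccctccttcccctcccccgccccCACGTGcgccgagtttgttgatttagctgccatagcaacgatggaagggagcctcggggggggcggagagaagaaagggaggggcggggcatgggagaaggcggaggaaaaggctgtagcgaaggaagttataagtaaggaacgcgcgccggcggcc
The motif begins 70 bases before the start in BMI1 and 157 bases before it in KLF4. CACGTG reads the same on both strands and was present in 6.31% of 34788 RefSeq promoter stretches of 250 bases. RefSeq stretches were at hand for 6 of the 8 genes, and in SOX2, SOX4, CD44 and ALDH1A1 these letters were not in the window. The GENCODE v29 annotation places all 250 bases of the SOX4 and CD44 stretches in exons of those genes. BMI1 and KLF4 moved in different directions with sts, and the match describes the letters only.

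CD44 rose with both kinds of vesicle by less than 2-fold and with little spread in control. It was at 343, 341 and 343 CPM in control, at 525, 571 and 472 CPM in ddp and at 479, 484 and 483 CPM in sts. Every treated library lay above every control library, and ddp and sts overlapped. The rise was 1.53-fold with ddp (log2 fold change 0.61, SE 0.0718, adjusted p = 1.05e-07) and 1.41-fold with sts (0.49, SE 0.0718, adjusted p = 1.70e-06). Between the vesicle types the log2 difference was −0.12 with a 95% confidence interval from −0.26 to 0.03 (adjusted p = 0.202). CD44 (ENSG00000026508) is on chromosome 11 at 35138882 to 35232402, plus strand. The tables hold 1 value per gene, so its splice forms were not told apart. CD44-AS1, on the other strand, had 8 to 31 counts per library against at least 4946 for CD44. ENSG00000251194, an intronic transcript on the same strand, had 8 to 14 counts in control, 33 to 45 in ddp and 21 to 35 in sts. It was called higher with ddp (log2 fold change 1.70, adjusted p = 0.00123) and with sts (1.45, adjusted p = 0.00315). Whether its reads came from unspliced CD44 RNA was not tested.

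ALDH1A1 rose with sts from its very high level. It was at 8006, 8104 and 8032 CPM in control, at 6992, 6950.2 and 8078 CPM in ddp and at 9902, 9981 and 11202 CPM in sts. The sts libraries lay above all 6 others, and ddp replicate 3 fell within the control range while the other 2 ddp libraries lay below it. The rise was 1.29-fold against control (log2 fold change 0.36, SE 0.0717, adjusted p = 1.43e-04) and 1.41-fold against ddp (0.50, SE 0.0718, adjusted p = 1.02e-06). With ddp the log2 fold change was −0.13 (95% confidence interval −0.28 to 0.01, adjusted p = 0.233). With limma on log2(FPKM + 1) without a filter both calls were lost (adjusted p = 0.331 against control and 0.146 against ddp), at log2 differences of 0.35 and 0.48. ALDH1A1 (ENSG00000165092) spans chromosome 9 from 72900671 to 73080442, minus strand.

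The ALDH1A1 promoter is shown because it is the most abundant transcript of the 8 and holds 2 promoter motifs close together. The stretch is chr9:72953057-72953303, minus strand (GRCh38.p14), with the CCAAT box and the octamer ATGCAAAT in capitals. The RefSeq start lies 127389 bases inside the deposited gene bounds, and which start the reads came from was not measured.
ALDH1A1: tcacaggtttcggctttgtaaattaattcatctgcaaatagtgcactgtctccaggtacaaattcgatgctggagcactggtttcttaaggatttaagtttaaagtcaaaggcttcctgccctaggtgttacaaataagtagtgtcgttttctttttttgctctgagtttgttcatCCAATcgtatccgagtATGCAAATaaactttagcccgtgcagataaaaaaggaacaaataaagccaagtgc
The CCAAT box begins 74 bases and the octamer 58 bases before the RefSeq start. Searched on both strands, CCAAT was in 32% of the 34788 stretches and ATGCAAAT in 1.62%. Of the 6 genes searched, the octamer was found in ALDH1A1 alone, while SOX2 and SOX4 also held CCAAT or its reverse ATTGG. GC content was 38.4% in ALDH1A1, 69.2% in KLF4, 76.8% at the first BMI1 start and 91.6% at the second, against a median of 58.0% over all stretches. Binding of proteins to these letters was not measured.

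**Figure D2:**
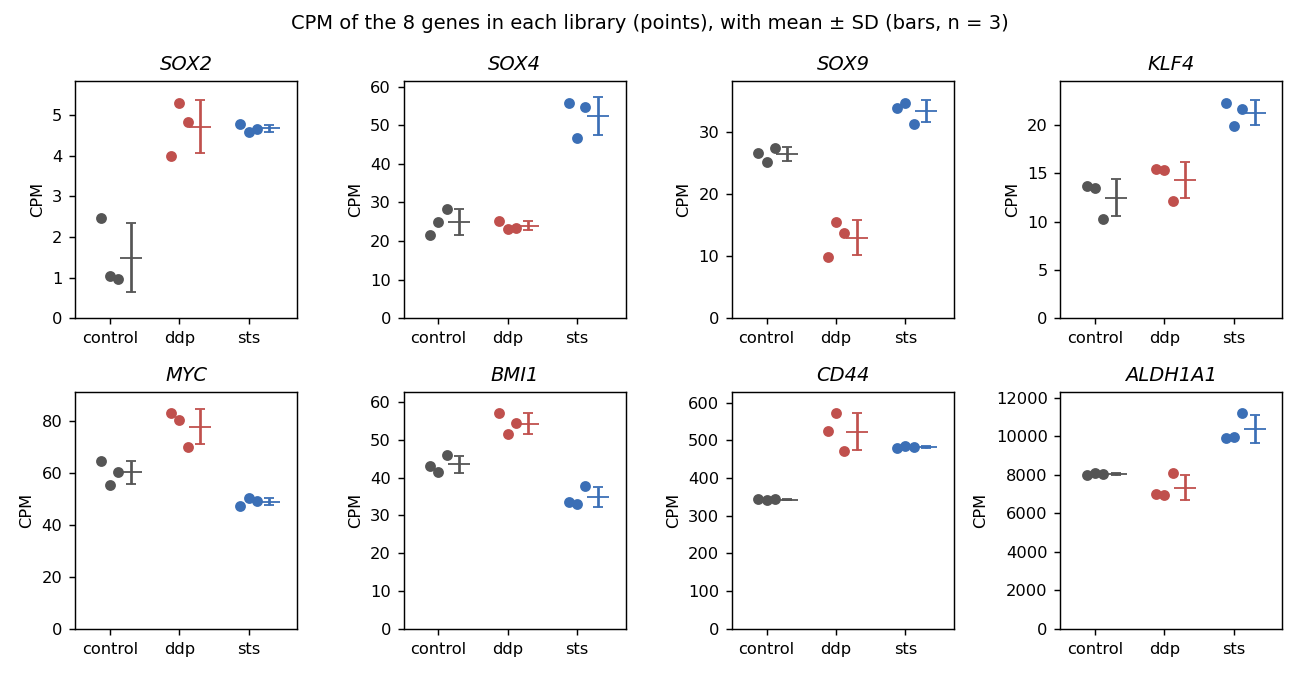
CPM (vertical axes, from 0, with a scale of its own in each panel) of the 8 genes in control, ddp and sts. Points are single libraries and bars are the mean ± SD of 3. SOX2 and CD44 are above control in both treated groups, MYC and BMI1 are highest in ddp and lowest in sts, SOX9 is lowest in ddp, and SOX4, KLF4 and ALDH1A1 are highest in sts.

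Counted over the 8 genes, 4 were called higher with ddp (SOX2, MYC, BMI1 and CD44), 1 lower (SOX9) and 3 not called, where 15.5% of all rows were called, 7.16% higher and 8.32% lower. With sts 6 were called higher (SOX2, SOX4, SOX9, KLF4, CD44 and ALDH1A1), 2 lower (MYC and BMI1) and 0 not called, where 32.8% of all rows were called, 15.9% higher and 16.8% lower. Between the vesicle types 4 were higher with sts, 2 lower and 2 not called, where 39.7% of all rows were called, 20.2% higher and 19.5% lower. The genes were chosen with earlier results of these data known, so these shares are descriptions and not a test of the group. Libraries did not overlap for 5, 8 and 6 of the 8 genes in the 3 comparisons, against 32.2%, 43.3% and 47.5% of all rows. The median log2 fold change of the 8 was 0.26 with ddp and 0.43 with sts, beside −0.00 and 0.01 over all rows. The called change was 2-fold or more for SOX2 and SOX9 with ddp and for SOX2 and SOX4 with sts. The share of all rows at that size was not counted, so these genes are named as a description only. The 2 comparisons with control share its 3 libraries and are therefore not independent of each other.

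**Figure D3:**
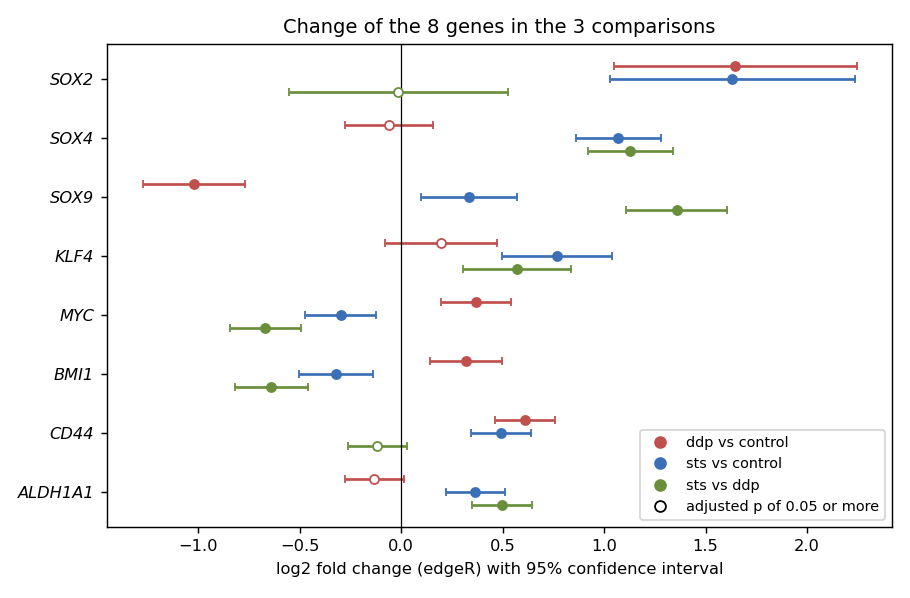
Log2 fold change (horizontal axis) of each gene in the 3 comparisons, with 95% confidence intervals from edgeR, filled where the adjusted p was under 0.05 and open otherwise. MYC and BMI1 lie on opposite sides of 0 in the 2 comparisons with control, and SOX9 does so the other way round, while SOX2 and CD44 lie on the same side.

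Partners of MYC were next examined, since MYC works as a partner of MAX. Of 22 partners, antagonists and turnover regulators of MYC 21 were tested. With ddp 2 rose and 2 fell (19% called, beside 15.5% of all rows), with a median of 0.07. With sts 5 rose and 6 fell (52.4% beside 32.8%), with a median of −0.04. Of the antagonist genes of the MXD family, MXD1, MXI1 and MXD4 rose with sts, while MXD3 was not called there (log2 fold change 0.14, adjusted p = 0.272). MXD4 was at 20.2 ± 1.77 CPM in control, 21.8 ± 0.211 in ddp and 46.8 ± 5.76 in sts, a 2.32-fold rise (adjusted p = 4.24e-11). MXD1 rose 2.60-fold with sts (adjusted p = 2.80e-07), MXI1 1.52-fold (adjusted p = 3.40e-04) and MAX itself 1.39-fold (adjusted p = 2.05e-04), while none of these 4 was called with ddp. MXD3 fell with ddp to 22.5 ± 2.68 CPM against 40.6 ± 3.09 in control (log2 fold change −0.85, adjusted p = 7.98e-08). Outside the MXD family, MGA of the same list fell with sts (log2 fold change −0.37, adjusted p = 0.00100). MNT was not called with sts (−0.04, adjusted p = 0.805). CIP2A and AURKA, whose products protect MYC protein from breakdown, fell with sts by 0.84 and 0.61 on the log2 scale. RUVBL1, a chromatin cofactor gene, rose with ddp from 109.6 ± 4.01 to 144 ± 11.4 CPM and fell with sts to 86.8 ± 3.67 CPM. MYCN reached at most 1 count.

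Genes that MYC is known to activate moved in the same direction as MYC in most called cases. Of 35 such genes 33 were tested. With ddp 15 rose, 0 fell and 18 were not called (45.5% called, beside 15.5% of all rows), with a median log2 fold change of 0.24. With sts 1 rose, 20 fell and 12 were not called (63.6% called, beside 32.8%), with a median of −0.25. NOLC1, a nucleolar assembly gene, was at 184 ± 12.01 CPM in control, 269 ± 4.51 in ddp and 123 ± 9.16 in sts. WDR43, a ribosome assembly gene, was at 144 ± 7.42, 182 ± 8.83 and 101 ± 3.21 CPM. ODC1, which makes polyamines, rose with both, from 189 ± 14.1 to 279 ± 8.29 CPM with ddp and 316 ± 9.43 CPM with sts. TERT, the telomerase catalytic subunit gene, fell with sts to 0.806 ± 0.179 CPM against 7.39 ± 0.883 in control (log2 fold change −3.18, SE 0.251, adjusted p = 5.94e-12) and stood at 9.64 ± 1.54 CPM in ddp, which was not called. Between the vesicle types 26 of the 33 were lower with sts and 1 higher (ODC1), 81.8% called beside 39.7% of all rows. The median there was −0.45, beside 0.03 over all rows. With median-of-ratios scaling, or without a filter, 0 were called higher there.

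BMI1 works within Polycomb repressive complex 1. Of 19 other genes of that complex 16 were tested, of which 1 rose and 1 fell with ddp (12.5% called, beside 15.5% of all rows) and 2 rose and 2 fell with sts (25% beside 32.8%). PHC2 rose with both, from 26.5 ± 2.78 CPM to 42.4 ± 2.87 with ddp and 38.6 ± 4.51 with sts. PCGF5, a relative of BMI1, fell with both, from 121 ± 10.4 CPM to 101 ± 3.30 with ddp and 89.0 ± 5.99 with sts. RING1 was listed at 0 counts in every library and PCGF2 at no more than 2, and whether such values reflect the RNA or how reads at overlapping or duplicated loci were counted was not tested. Polycomb repressive complex 2 places the mark that complex 1 can bind. Of its 9 tested genes 0 were called with ddp by edgeR's test (1 at an unadjusted p under 0.05). With sts 5 fell and 1 rose (66.7% called, beside 32.8% of all rows). EZH2, the catalytic subunit, was at 84.7 ± 6.90 CPM in control, 81.8 ± 5.90 in ddp and 60.2 ± 3.21 in sts, SUZ12 at 98.3 ± 3.69, 104 ± 0.897 and 72.1 ± 5.64 CPM, and EED at 40.6 ± 3.64, 38.5 ± 1.83 and 28.5 ± 4.81 CPM. EZH1, the other catalytic subunit, rose with sts (log2 fold change 0.46, adjusted p = 6.59e-04). CDKN2A, a locus that Polycomb complexes can repress, had 0 counts in all 9 libraries. The locus is known to be deleted in A549, so its count bears on Polycomb repression in neither direction.

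Relatives of the SOX and KLF factors did not share 1 pattern. Of 16 other SOX genes 7 were tested. With ddp 0 of them were called by edgeR's test (3 at an unadjusted p under 0.05), beside 15.5% of all rows. With sts 2 rose (28.6% called, beside 32.8%). SOX13 was at 17.8 ± 2.44 CPM in control, 15.1 ± 1.28 in ddp and 25.3 ± 3.91 in sts, and SOX21 at 0.725 ± 0.228, 0.749 ± 0.0778 and 2.89 ± 0.200 CPM. Of 17 other KLF genes 11 were tested. With ddp 2 rose and 3 fell (45.5% called), and with sts 1 rose and 3 fell (36.4%). KLF2, a factor that answers to fluid flow in vessels, fell with both, from 33.6 ± 3.49 CPM to 20.7 ± 1.12 with ddp and 14.3 ± 2.29 with sts. KLF10, a TGF-beta early gene, rose with ddp from 85.0 ± 1.76 to 115 ± 8.64 CPM, and KLF5, an epithelial growth factor-responsive gene, fell with ddp from 50.7 ± 4.72 to 38.2 ± 2.87 CPM.

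Genes around CD44 covered the synthesis of its ligand hyaluronan, other ligands and the linkers that tie its tail to actin. Of 26 such genes 24 were tested. With ddp 6 rose and 5 fell (45.8% called, beside 15.5% of all rows). With sts 8 rose and 6 fell (58.3% beside 32.8%). HAS2, a hyaluronan synthase gene, was at 4.70 ± 0.696 CPM in control and rose to 9.59 ± 2.29 with ddp and 11.3 ± 0.989 with sts. HAS3, another synthase gene, rose with ddp to 32.0 ± 2.06 CPM against 13.1 ± 2.38 in control (log2 fold change 1.28, adjusted p = 7.98e-08) and fell with sts to 9.32 ± 2.26 CPM (−0.49, adjusted p = 0.0131). SPP1, which encodes the secreted CD44 ligand osteopontin, fell with ddp from 555 ± 18.9 to 411 ± 11.7 CPM and rose with sts to 939 ± 70.3 CPM. The linker gene EZR fell with both, from 489 ± 26.5 CPM to 385 ± 7.97 with ddp and 280.2 ± 4.13 with sts, and RDX fell with sts. NF2, whose product merlin counters CD44 signalling, was at 29.4 ± 2.92 CPM in control, 36.1 ± 2.39 in ddp and 17.0 ± 1.15 in sts, a fall with sts of 0.79 on the log2 scale.

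The aldehyde dehydrogenase family held genes called in each direction. Of 18 other aldehyde dehydrogenase genes 16 were tested. With ddp 0 rose and 6 fell (37.5% called, beside 15.5% of all rows). With sts 3 rose and 4 fell (43.8% beside 32.8%). Between the vesicle types 7 were higher with sts and 3 lower (62.5% called, beside 39.7% of all rows). ALDH3A1, a cytosolic enzyme that clears aldehydes of lipid oxidation, was at 1091 ± 225 CPM in control, 1340 ± 74.4 in ddp and 2574 ± 191 in sts (log2 fold change with sts 1.24, adjusted p = 2.07e-05). ALDH2, the mitochondrial enzyme of alcohol metabolism, fell with ddp from 33.8 ± 2.99 to 27.7 ± 1.08 CPM and rose with sts to 55.8 ± 4.22 CPM. ALDH1B1, another mitochondrial form, fell with both, from 83.3 ± 5.05 CPM to 67.6 ± 8.86 with ddp and 37.9 ± 2.20 with sts. ALDH1A2, a second retinaldehyde-oxidising enzyme gene, was at 0.902 ± 0.213, 0.0620 ± 0.0625 and 0.718 ± 0.548 CPM, near the limit of detection in ddp.

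RDH10, which makes the retinaldehyde that ALDH1A1 oxidises, moved in opposite directions with the 2 kinds of vesicle. It was at 77.3 ± 8.99 CPM in control, 31.1 ± 3.37 in ddp (log2 fold change −1.31, SE 0.0911, adjusted p = 1.39e-12) and 172 ± 3.99 in sts (1.16, SE 0.0857, adjusted p = 1.39e-12). Of 21 genes of the retinoid pathway 15 were tested. With ddp 2 rose and 2 fell (26.7% called, beside 15.5% of all rows). With sts 5 rose and 1 fell (40% beside 32.8%). Between the vesicle types 6 were higher with sts and 2 lower (53.3% called, beside 39.7% of all rows). RARB, a retinoic acid receptor gene that retinoic acid itself induces, was at 27.6 ± 0.530 CPM in control, 25.3 ± 0.0793 in ddp and 40.3 ± 4.01 in sts. TGM2, another retinoic acid-responsive gene, was at 89.3 ± 12.1, 109.99 ± 16.0 and 153 ± 7.39 CPM and was called higher in both. CYP26A1, which breaks retinoic acid down and is itself induced by it, was the gene that fell with sts (log2 fold change −2.05, SE 0.670, adjusted p = 0.0174), at a low level, and was not called with ddp. CYP26B1, a related enzyme gene, fell with ddp from 14.1 ± 2.33 to 7.35 ± 1.36 CPM and was not called with sts.

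**Figure D4:**
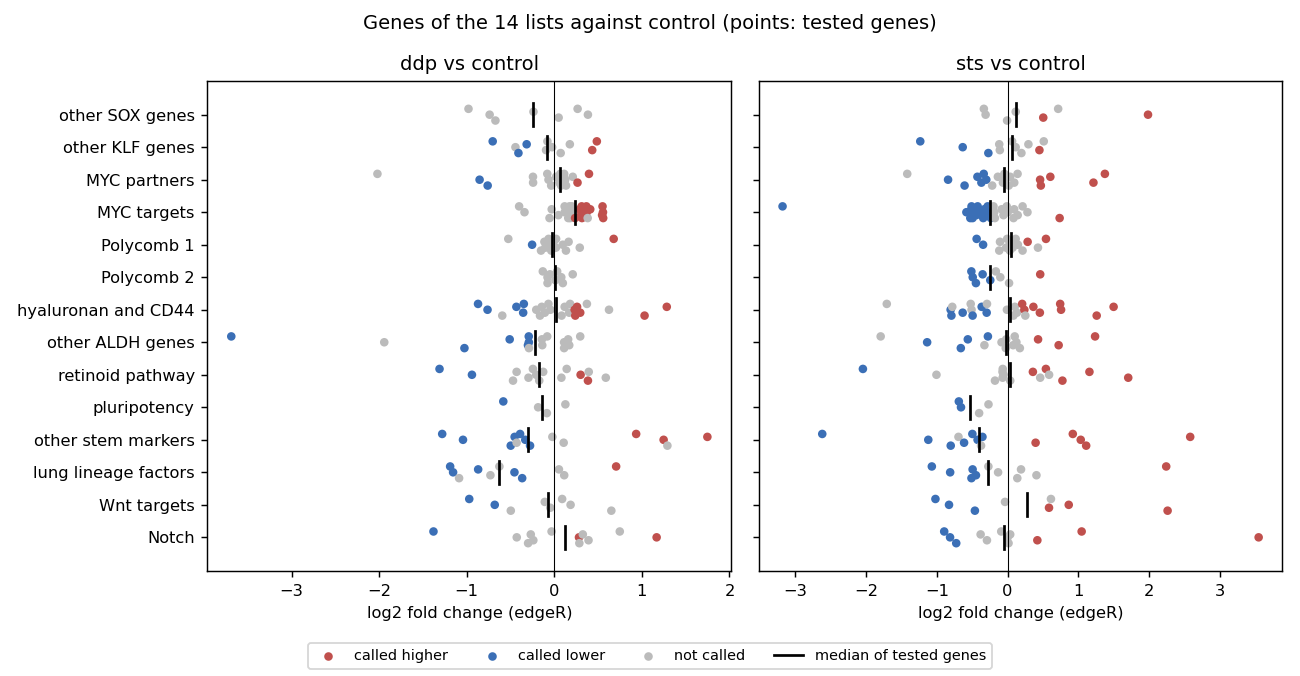
Log2 fold change (horizontal axes) of each tested gene of 14 lists with ddp (left) and sts (right) against control. Points are genes, coloured by whether they were called higher, lower or not called, and black bars are list medians. MYC target genes lie mostly to the right of 0 with ddp, where 15 of 33 were called higher, and to the left with sts, where 20 were called lower. Of all rows, 7.16% were called higher with ddp and 16.8% lower with sts.

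The core pluripotency genes had few or no counts. NANOG had 0 counts in every library, POU5F1 at most 2 and LIN28A at most 5. Of 14 pluripotency genes 4 were tested. With ddp 0 rose and 1 fell (25% called, beside 15.5% of all rows). With sts 0 rose and 2 fell (50% beside 32.8%). DNMT3B, a DNA methyltransferase gene, fell with both, from 16.1 ± 1.37 CPM to 10.7 ± 1.64 with ddp and 9.97 ± 2.56 with sts. LIN28B, which blocks the maturation of let-7 microRNAs, fell with sts from 8.15 ± 0.375 to 5.17 ± 0.914 CPM.

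Other genes used as stem or tumour-initiating cell markers moved both ways. Of 20 such genes 14 were tested. With ddp 3 rose and 7 fell (71.4% called, beside 15.5% of all rows). With sts 5 rose and 7 fell (85.7% beside 32.8%). DCLK1, a tuft-cell and tumour stem cell kinase gene, rose from 3.26 ± 0.566 CPM to 10.9 ± 0.569 with ddp and 19.5 ± 1.06 with sts. NT5E, which encodes the surface nucleotidase CD73, rose from 61.8 ± 6.56 CPM to 118 ± 4.30 and 133 ± 9.49. CD24 fell from 519 ± 15.2 CPM to 412 ± 12.6 and 297 ± 12.7, and ABCG2, the efflux pump that defines the side population, from 179 ± 6.46 CPM to 127 ± 8.85 and 117 ± 8.09. LGR6 fell with ddp from 8.70 ± 1.29 to 4.23 ± 0.961 CPM and rose with sts to 17.9 ± 2.19 CPM. PROM1, the CD133 gene, had at most 6 counts, LGR5 1 and KIT 6.

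Lineage factors and the Wnt and Notch pathways, which act upstream of SOX2, SOX9 and MYC in several tissues, were counted last. Of 15 lung and airway factor genes 11 were tested. With ddp 1 rose and 5 fell (54.5% called, beside 15.5% of all rows, median −0.63). With sts 1 rose and 5 fell (54.5% beside 32.8%, median −0.27). ELF3, an epithelial factor gene, fell with ddp from 216 ± 16.5 to 94.8 ± 4.84 CPM and stood at 238 ± 7.64 CPM in sts, which was not called. TP63, the basal-cell factor gene, rose with sts from 2.80 ± 0.845 to 13.3 ± 1.07 CPM, and ID2, a distal lung factor gene, rose with ddp from 52.2 ± 4.81 to 85.1 ± 5.64 CPM and fell with sts to 29.7 ± 2.38 CPM. Of 12 Wnt targets 8 were tested. With ddp 0 rose and 2 fell (25% called), and with sts 3 rose and 3 fell (75%). RNF43, a feedback inhibitor gene, was at 12.9 ± 1.73 CPM in control, 6.58 ± 1.49 in ddp and 19.4 ± 0.515 in sts, called in both. CCND1 stood at 154 ± 9.21, 164 ± 3.92 and 86.6 ± 5.25 CPM and DKK1 at 528 ± 50.5, 511 ± 30.2 and 260 ± 21.0 CPM, both lowest in sts. Of 16 Notch genes 12 were tested. With ddp 2 rose and 1 fell (25% called), and with sts 3 rose and 3 fell (50%). HES1, a direct Notch target, fell with ddp from 10.0 ± 1.77 to 3.85 ± 0.882 CPM and rose with sts to 20.7 ± 1.77 CPM, while the ligand gene JAG1 went the other way, from 39.5 ± 0.348 to 48.0 ± 1.35 and 22.5 ± 3.51 CPM. Among other Notch targets, NRARP did not share the fall of HES1 with ddp. It was at 1.37 ± 0.736 CPM in control, 3.07 ± 0.617 in ddp and 1.05 ± 0.517 in sts. HEY1 was at 0.158 ± 0.0433, 0.272 ± 0.134 and 1.94 ± 0.138 CPM. Its ddp libraries (0.122 to 0.381 CPM) overlapped control (0.130 to 0.208 CPM), near the limit of detection.

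Finally, the genes whose levels followed each of the 8 most closely were listed by Pearson's r of log2 CPM over the 9 libraries, among 12738 genes with a mean log2 CPM of at least 1. The points share the 3 treatment groups, so a high r describes a like order of groups. For MYC these were C1QBP (r = 0.995), NUDC (0.990) and HSPA5 (0.985), and for BMI1 they were ANAPC7 (0.988), EARS2 (0.983) and NSUN2 (0.983). For SOX9 they were TP53I11 (0.994), EPS8L3 (0.990) and TMEM37 (0.988), of which EPS8L3 fell by 1.81 on the log2 scale with ddp and rose by 0.87 with sts. SOX4 was followed by the locus ENSG00000227619 (0.990), SNX33 (0.989) and FAM107B (0.988), KLF4 by the keratin gene KRT15 (0.978), CAMK1D (0.973) and GCH1 (0.968). SOX2 was followed by FUCA2 (0.969), ANKRD22 (0.955) and the interleukin-4 receptor gene IL4R (0.953). CD44 was followed by CAVIN3 (0.989), FHL1 (0.983) and LTBP4 (0.983), and ALDH1A1 by KLHDC2 (0.989), CHURC1 (0.987) and ZBTB43 (0.986).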

How the data were processed

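Per the labels' protocols, TRIzol RNA of A549 cells given saline or vesicles went into NEBNext Ultra libraries. Strand is not mentioned there. HISAT2 2.0.5, StringTie 1.3.3b, featureCounts 1.5.0-p3, limma and build hg38 are named, without roles, per the submitters' processing notes. The authors deposited unnormalized read counts, whole numbers per gene, and FPKM values for the same 62257 rows, of which 705 are unannotated loci with 0.313% to 0.357% of the counts. Coordinates are those of the deposited tables. Groups and replicate numbers came from sample titles.

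The test was edgeR's quasi-likelihood test (edgeR 4.0.16, R 4.3.3) on the deposited counts with TMM scaling, robust settings and edgeR's default filter, fitted once to all 9 libraries with no covariate. Of the 16947 rows tested 467 were unannotated loci. A Benjamini-Hochberg adjusted p under 0.05 over all rows was a call. Where no test is named, an adjusted p is edgeR's. SE is the log2 fold change over the square root of F, and intervals use the t distribution. CPM uses TMM-scaled library sizes, except marker sums, which use library totals. Group values are mean ± SD of 3 libraries.

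The 8 genes and the 14 lists of related genes were chosen with earlier results of these data known. Named genes were the 8, up to 3 called members of smallest p per list and comparison, the 3 genes most like each of the 8, overlapping genes and CDKN2A. MAX, MXD1, MXI1, MGA, MNT, NANOG, POU5F1, LIN28A, PROM1, LGR5, KIT, MYCN, NKX2-1, RING1, PCGF2 and CYP26A1 were named after their values were seen. Promoter sequences are RefSeq's (GRCh38.p14), printed without bases that GENCODE v29 places in an exon. Motifs were searched in the whole stretches, with such bases kept. The fit was tested on simulated data with a common spread for all genes. Of 100 genes changed 1.5-fold, 66 to 75 were called over the 3 comparisons, and of 100 changed 2-fold, 94 to 98. The changed genes were drawn only from rows above a minimum mean count, so recovery at low counts was not measured. False calls made up 1.72% to 3.61% of calls. Changes under 1.5-fold were not simulated. Alternatives were other scalings and filters, DESeq2 1.42.0, limma 3.58.1 with voom or on log2(FPKM + 1) and log2(FPKM + 0.1), a block for the replicate number, fits restricted to the groups compared, and omission of single libraries.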

Additional observations from a re-analysis of the deposited data

How the results depend on the processing

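The count of the 8 genes called stayed within 1.5 times of its value under every alternative run, at 4 to 5 with ddp, 6 to 8 with sts and 5 to 6 between the vesicle types. Of 480 recomputed fold changes of the 8 genes 462 kept their direction and side of the threshold, 14 lost their call and 4 changed sign. The sign changes were SOX4 with ddp without control replicate 3 (0.0393), and SOX2 between the vesicle types with upper-quartile factors (0.0184), without ddp replicate 2 (0.0639) and without ddp replicate 3 (5.34e-04). With single libraries left out, the first ran from −0.152 to 0.0393 and the second from −0.122 to 0.0639. Neither was called under any setting run, and the cause was not tested. The calls lost were those of SOX9 with sts, BMI1 with ddp and ALDH1A1 with sts against control and against ddp. BMI1 with ddp was also lost with limma on log2(FPKM + 1) without a filter (adjusted p = 0.0529), and SOX9 with sts with limma on log2(FPKM + 0.1) (0.116) and on log2(FPKM + 1) without a filter (0.214). Of all rows, limma called 1624 with ddp on log2(FPKM + 1), 1622 on log2(FPKM + 0.1) and 992 on log2(FPKM + 1) without a filter, against 2623, and 3617 with sts without a filter, against 5552. The cause was not tested. The 14 lists were recounted only with the other scalings and filters, not with the remaining alternatives. There the count moved by over 1.5 times for the pluripotency list between the vesicle types. It went from 2 called to 1 with upper-quartile factors and without a filter. With the replicate number as a block, 5, 8 and 6 of the 8 genes were called and 2359, 5297 and 6429 rows, and no call of the 8 changed. Over all rows tested, correlations of deviations from group means ran from −0.0847 to 0.0547 between same-numbered libraries. Between differently numbered libraries of different groups they ran from −0.047 to 0.056. Values over all rows cannot show whether a shared number means a shared culture or batch. SOX2 rests on at most 87 reads per library, which limits its precision.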
